A study of Mus musculus with 9 samples.

Results

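The transcripts described here encode 8 non-catalytic subunits of the COMPASS complexes, chosen by gene symbol from a table of 33924 genes. They are the core subunits Wdr5, Rbbp5, Ash2l and Dpy30, the accessory subunits Ncoa6 and Paxip1 of the MLL3 and MLL4 complexes, Men1 of the MLL1 and MLL2 complexes, and Cxxc1 of the SET1 complexes. All 8 were found, and all 8 were among the 14772 genes with enough reads to be tested. COMPASS complexes place methyl groups on lysine 4 of histone H3, a mark of promoters and enhancers. A catalytic subunit of the MLL or SET1 family does this poorly alone and is stimulated by the core, in which WDR5 binds the catalytic subunit, RBBP5 and ASH2L form the activating pair and DPY30 binds ASH2L as a dimer. The accessory subunits differ between complexes and help to direct each to its sites, CXXC1 through unmethylated CpG DNA and menin, the product of Men1, as an adaptor for chromatin-bound partners. UTX, encoded by Kdm6a, is itself a subunit of the MLL3 and MLL4 complexes.

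RNA was sequenced from mouse embryonic stem cells described in the labels as male, pluripotent cells derived from the early embryo, grown on gelatin in serum medium with the cytokine LIF. There were 3 groups of 3 libraries: a UTX knockout, a line labelled MLL4 knockdown (MLL4 is encoded by Kmt2d), and UTX wild type cells, all without further treatment. The sample titles name A6 for every knockout library and JM8A for the other 2 groups, with an unexplained further number for the labelled knockdown. In the UTX knockout a difference of line and the perturbation therefore cannot be told apart. The labelled knockdown differed from wild type on chromosomes 8 and Y much as the UTX knockout did (values below). There too a difference of line and the perturbation cannot be told apart. The labels do not say if each library had its own culture, so p-values measure the spread between these libraries, which may be technical.

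Total counts lay between 18570746 and 23874816 per library. Kdm6a stood at 16.4 ± 3.33 CPM (read counts relative to library size, after TMM scaling) in the UTX knockout, 107 ± 6.50 CPM in the labelled MLL4 knockdown and 78.9 ± 18.9 CPM in wild type cells (SD, n = 3 each). Kmt2d (Mll2 in the table) had 71.0, 72.0 and 73.4 CPM in the libraries labelled MLL4 knockdown, against 86.2, 43.5 and 119 CPM in wild type. Its log2 fold change of -0.20 (SE 0.27, edgeR adjusted p = 0.624) did not pass the test, and directions given for the labelled knockdown therefore depend on the label. Of the wild type libraries, those at 86.2 and 119 CPM lay above all labelled knockdown libraries and that at 43.5 CPM lay below. The missing call does not show that Kmt2d was unchanged. The 9 stem cell markers summed to 6187 to 6757 CPM in the UTX knockout and 6259.8 to 6917 CPM in the labelled knockdown. In wild type they summed to 4940.5 to 5985 CPM, and none was at 0. Means of Pou5f1, Sox2, Nanog, Esrrb, Klf4 and Tdgf1 were higher in both perturbed groups than in wild type, and those of Zfp42 and Utf1 lower. Dppa5a had means of 1299 CPM in the UTX knockout, 469 CPM in the labelled knockdown and 988 CPM in wild type. Sums of 7 fibroblast markers were 5.32 to 6.72, 2.21 to 3.28 and 11.5 to 20.2 CPM in the same order of groups, with Lum at 0 in every library and 4, 1 and 1 of the 7 at 0 in all libraries of the group. The 5 trophectoderm markers summed to 22.1 to 45.0, 23.5 to 25.9 and 52.7 to 475 CPM, with Elf5 at 0 in the UTX knockout. In wild type the keratin genes Krt8, Krt18 and Krt7 had means of 134, 148 and 20.9 CPM, against 0.781 for Cdx2 and 0.146 for Elf5. The 3 neuroectoderm markers in the table summed to 46.6 to 55.1, 52.8 to 64.6 and 130 to 173 CPM. The 5 primitive endoderm markers summed to 14.3 to 18.6, 26.8 to 30.0 and 11.3 to 16.2 CPM. Of these, Dab2, Pdgfra and Gata6 had their highest mean in the labelled knockdown, and Gata4 and Sox17 in the UTX knockout. Y-linked transcripts were low in both perturbed groups: the 17 genes of chromosome Y in the table summed to 83, 56 and 55 counts in the UTX knockout and 71, 67 and 66 counts in the labelled knockdown, against 988, 644 and 861 counts in wild type. The 4 that were tested, Ddx3y, Eif2s3y, Ube1y1 and the UTX paralog Uty, are named after their values were seen. All 4 were called lower in both comparisons with wild type, at a median log2 fold change of -3.93 in the UTX knockout and -4.18 in the labelled knockdown, and 0 of 4 differed between the perturbed groups (edgeR adjusted p). The groups thus differ in Y-linked expression as well as in their labels. The part of Y-linked expression and of these marker differences in the results below was not tested. In bulk RNA, fewer cells of a type and less RNA per cell cannot be told apart.

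Against wild type, 3 of the 8 subunits rose in the UTX knockout with 0 falling, while the labelled MLL4 knockdown had 5 rises and 1 fall. Wdr5, Rbbp5 and Ncoa6 rose in both comparisons, which share their wild type libraries. Calls are at an adjusted p under 0.05 (edgeR's quasi-likelihood test with Benjamini-Hochberg adjustment over all tested genes). In the UTX knockout 15.5% of all tested genes were called, made up of 6.55% called higher and 8.92% called lower. In the labelled knockdown 26.6% of all tested genes were called, made up of 10.8% higher and 15.8% lower. The libraries did not overlap for those 3 subunits in the UTX knockout, as for 31.5% of all tested genes, and for those 6 in the labelled knockdown, as for 42.9%. With the replicate number as a block the same 3 and 6 subunits were called, where 23.3% and 34.1% of all tested genes were. The count of 3 was 1 without UTX knockout replicate 2, and the count of 6 was 2, 1 and 1 without labelled knockdown replicates 1, 2 and 3. The median log2 fold change of the 8 was 0.03 in the UTX knockout and 0.33 in the labelled knockdown, against -0.01 and -0.02 over all tested genes. The DNA upstream of the 3 genes called in both comparisons is shown for comparison. It is the 250 bases before the most upstream RefSeq start of each gene, on the gene's strand, in GRCm38.p6. Which start these cells use was not tested. The windows are chr2:27514897-27515146 on the plus strand for Wdr5, chr1:132477117-132477366 on the plus strand for Rbbp5 and chr2:155440784-155441033 on the minus strand for Ncoa6. Capitals mark matches on either strand to any of 7 motifs, and matches of different motifs may overlap. They were the GC box of SP and KLF factors (GGGCGG, in 60.1% of 11009 such windows of tested genes), the ETS motif (CCGGAAG, in 13.4%) and the YY1 motif (AAGATGGC, in 1.99%). The CCAAT box (CCAAT, in 36.9%), the TATA box (TATAAA, in 6.27%), the cyclic AMP response element (TGACGTCA, in 2.74%) and the NRF1 motif (in 8.08%) were the others.
Wdr5: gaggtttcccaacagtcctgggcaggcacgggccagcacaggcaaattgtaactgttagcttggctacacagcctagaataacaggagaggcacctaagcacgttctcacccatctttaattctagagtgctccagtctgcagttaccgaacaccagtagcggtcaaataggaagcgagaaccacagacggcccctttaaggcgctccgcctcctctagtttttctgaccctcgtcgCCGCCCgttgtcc
Rbbp5: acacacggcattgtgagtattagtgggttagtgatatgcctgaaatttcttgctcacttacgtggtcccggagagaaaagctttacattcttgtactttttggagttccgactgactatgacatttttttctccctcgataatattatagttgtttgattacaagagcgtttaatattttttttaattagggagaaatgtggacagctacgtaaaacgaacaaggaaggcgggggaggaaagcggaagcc
Ncoa6: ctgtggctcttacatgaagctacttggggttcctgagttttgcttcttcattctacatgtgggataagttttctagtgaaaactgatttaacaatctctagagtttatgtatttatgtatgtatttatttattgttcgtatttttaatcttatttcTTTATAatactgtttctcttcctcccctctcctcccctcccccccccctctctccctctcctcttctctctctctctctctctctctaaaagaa
The Wdr5 window held a match to the GC box motif on the opposite strand. The Ncoa6 window held a match to the TATA box motif on the opposite strand and the Rbbp5 window held none of the 7. Whether any match is a working site was not tested. CpG dinucleotides numbered 12 for Wdr5, 10 for Rbbp5 and 1 for Ncoa6, against a median of 16 over those windows. No motif of this set was common to the 3 windows. The files' processing notes name another build, mm9, so these positions are those of RefSeq only.

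Among the core subunits, Wdr5 and Rbbp5 rose in both perturbed groups and Dpy30 did not pass the test in any comparison. Ash2l fell in the labelled MLL4 knockdown. Wdr5, the WD40 propeller shared by all COMPASS complexes, stood at 363, 366 and 323 CPM in the UTX knockout, at 335, 331 and 309 CPM in the labelled knockdown and at 267, 262 and 244 CPM in wild type (replicates 1 to 3). All 6 perturbed libraries lay above all 3 wild type libraries. Relative to wild type the log2 fold change was 0.44 (SE 0.10, adjusted p = 0.0134), or 1.36-fold, in the UTX knockout. Its counterpart in the labelled knockdown was 0.34 (SE 0.10, adjusted p = 0.0279), or 1.26-fold. Leaving out UTX knockout replicate 2 ended the first call (adjusted p = 0.0674), and the second ended without any 1 of the 3 labelled knockdown libraries or wild type replicate 3 (adjusted p = 0.0569 to 0.0959 over these 4). The spread of Wdr5 was low for its level: its within-group SD was 0.08 in log2 CPM, against a median of 0.15 over 545 genes of like level.

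Rbbp5 rose in both perturbed groups. Its protein, a WD40 protein that bridges ASH2L and the catalytic subunit, is part of every COMPASS complex. It stood at 152, 173 and 160.2 CPM in the UTX knockout, 137, 137 and 141 CPM in the labelled knockdown and 102, 91.5 and 119 CPM in wild type. The 3 groups did not overlap, with the UTX knockout highest and wild type lowest. The rise was 0.63 in log2 (SE 0.11, adjusted p = 0.00521), or 1.55-fold, in the UTX knockout, and the call held with each of the 9 libraries left out in turn. The rise was 0.41 (SE 0.11, adjusted p = 0.0225), or 1.33-fold, in the labelled knockdown, and the call ended without any 1 of the 3 labelled knockdown libraries (adjusted p = 0.057 to 0.0767). The difference between the perturbed groups, labelled knockdown over UTX knockout, missed the threshold at -0.23 (SE 0.11, 95% interval -0.48 to 0.02, adjusted p = 0.155), and passed it in a fit of those 2 groups alone (adjusted p = 0.0412).

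**Figure D1:**
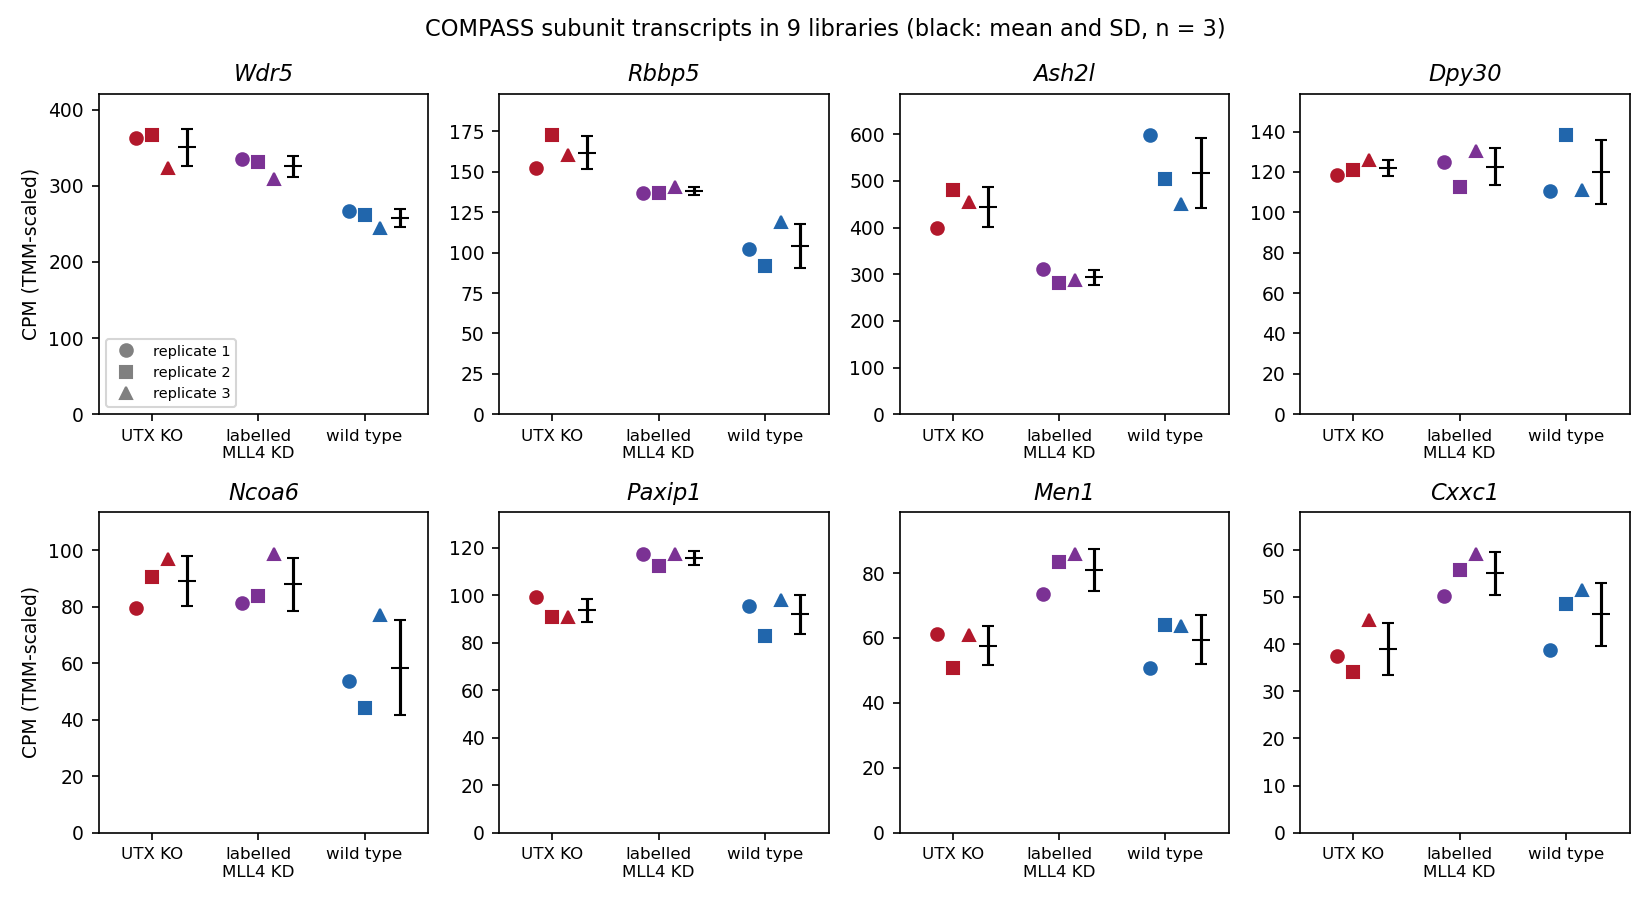
TMM-scaled CPM of each subunit (y axis, from 0) in the UTX knockout, labelled MLL4 knockdown and wild type libraries, with replicate numbers as symbols and black bars for mean and SD (n = 3). Wdr5, Rbbp5 and Ncoa6 are higher in all 6 perturbed libraries than in any wild type library, and Ash2l is lowest in the 3 labelled MLL4 knockdown libraries, at 281 to 312 CPM.

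Ash2l, which encodes the SPRY-domain subunit that pairs with RBBP5, was the only one of the 8 to fall, and did so in the labelled MLL4 knockdown. It stood at 312, 281 and 287 CPM there, at 398, 481 and 454 CPM in the UTX knockout and at 598, 503 and 450.1 CPM in wild type. The labelled knockdown libraries lay below all others, while the UTX knockout and wild type overlapped. The log2 fold change against wild type was -0.82 in the labelled knockdown (SE 0.13, adjusted p = 0.000958), or 0.567 of the wild type level, and -0.22 in the UTX knockout (SE 0.13, 95% interval -0.49 to 0.06, adjusted p = 0.263). Labelled knockdown over UTX knockout gave -0.60 (SE 0.13, adjusted p = 0.00521). Both calls held with each of the 9 libraries left out in turn.

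Ash2l lies on chromosome 8, whose genes as a whole were lower in both perturbed groups. Chromosome 8 took 3.97% to 4.09% of counts in the 6 perturbed libraries, against 5.26% to 5.34% in wild type. Over 776 tested genes of chromosome 8 the median log2 fold change against wild type was -0.44 in the UTX knockout and -0.42 in the labelled knockdown, the lowest in both comparisons among the 20 chromosomes with at least 50 tested genes, a count that leaves out chromosome Y with the values given above. Of these genes 35.7% were called lower in the UTX knockout and 40.6% in the labelled knockdown. Relative to its chromosome, Ash2l stood at -0.40 in the labelled knockdown and at 0.23 in the UTX knockout, and 154 and 573 of the 776 genes had a lower fold change than Ash2l. Between the perturbed groups the chromosome 8 median was 0.02, where Ash2l was at -0.60. The other 7 subunits lie on chromosomes 1, 2, 5, 17, 18 and 19, whose medians were within -0.02 and 0.06 in both comparisons with wild type.

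**Figure D2:**
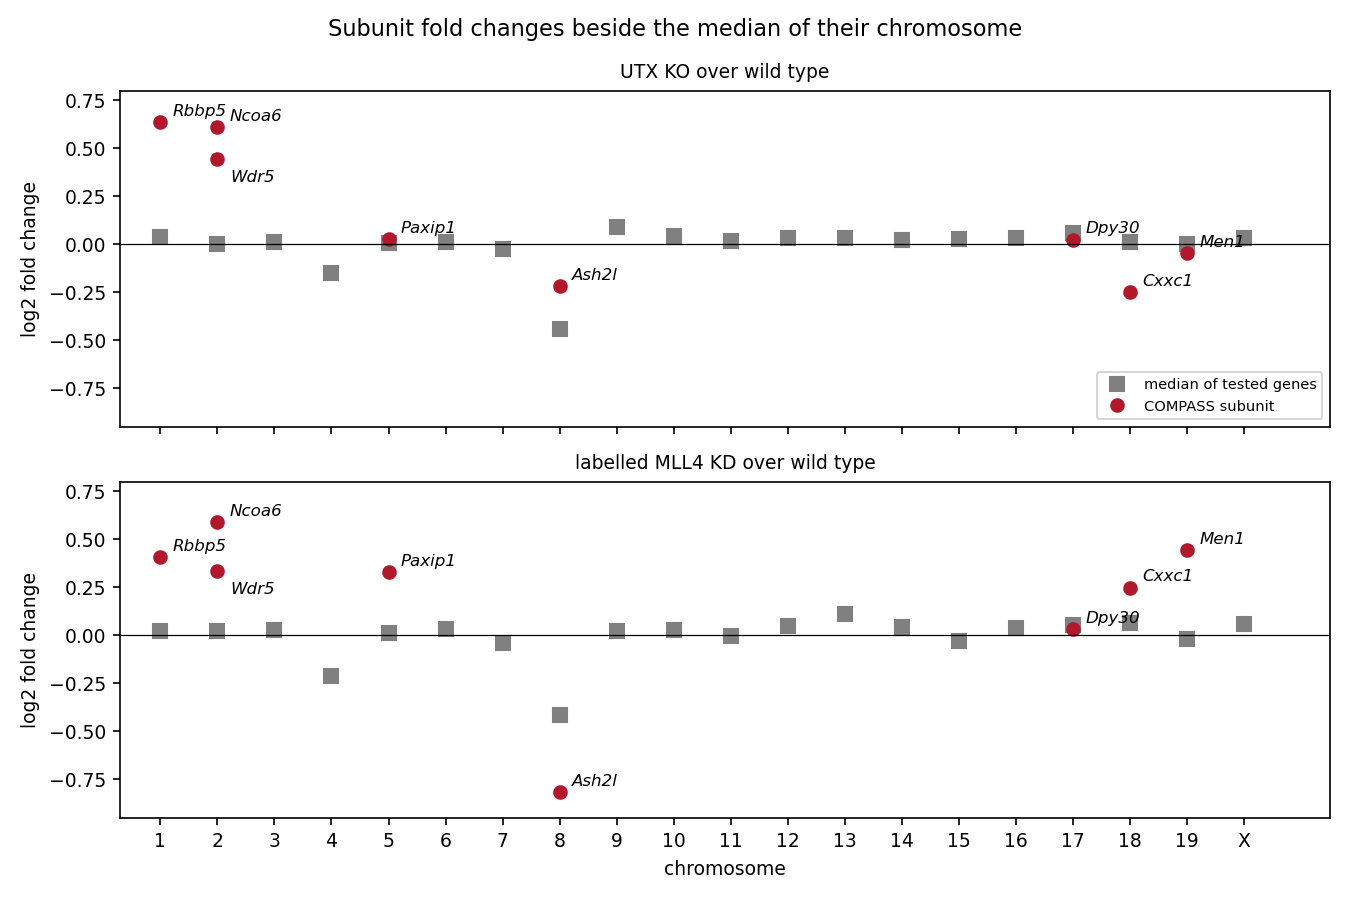
Log2 fold change against wild type (y axis) by chromosome (x axis), for the UTX knockout above and the labelled MLL4 knockdown below; grey squares are medians of the tested genes and red points the 8 subunits. Chromosome 8 has the lowest median in both panels (-0.44 and -0.42), with Ash2l above it in the UTX knockout and below it in the labelled knockdown.

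Dpy30, the small dimeric subunit that docks on ASH2L, stood at 118, 121 and 126 CPM in the UTX knockout, 125, 113 and 130.4 CPM in the labelled knockdown and 110.5, 138 and 111 CPM in wild type. The 3 groups overlapped. The log2 fold change was 0.02 in the UTX knockout (95% interval -0.23 to 0.28, adjusted p = 0.918) and 0.03 in the labelled knockdown (-0.22 to 0.29, adjusted p = 0.859), both by edgeR's quasi-likelihood test.

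The ratio of the core transcripts also differed between the groups. Per kilobase of exon, the ratio of Ash2l to Wdr5 was 0.901, 1.08 and 1.16 in the UTX knockout, 0.764, 0.697 and 0.761 in the labelled knockdown and 1.84, 1.58 and 1.52 in wild type. Neither perturbed group overlapped wild type, nor did they overlap each other. Ash2l made up 29.4% to 32.7% of the 4 core transcripts in the UTX knockout, 23.8% to 25.2% in the labelled knockdown and 37.3% to 43.8% in wild type. Rbbp5 made up 10.7% to 11.2% in the UTX knockout, 10.5% to 11.2% in the labelled knockdown and 6.52% to 9.41% in wild type. These shares carry the chromosome 8 difference given above, and with 3 libraries a group an exact permutation test cannot go below p = 0.1, so none was run.

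The accessory subunits of the MLL3 and MLL4 complexes differed in pattern: Ncoa6 rose in both perturbed groups and Paxip1 in the labelled MLL4 knockdown. Ncoa6, a nuclear receptor coactivator, stood at 79.6, 90.45 and 97.0 CPM in the UTX knockout, 81.2, 83.9 and 98.7 CPM in the labelled knockdown and 53.9, 44.3 and 77.0 CPM in wild type. No perturbed library overlapped wild type, although wild type replicate 3, at 77.0 CPM, came close to the lowest UTX knockout library, at 79.6 CPM. The log2 fold change was 0.61 (SE 0.18, adjusted p = 0.0432) in the UTX knockout and 0.59 (SE 0.18, adjusted p = 0.0328) in the labelled knockdown. The first call ended without any 1 of 7 libraries, all but UTX knockout replicate 1 and wild type replicate 3 (adjusted p = 0.058 to 0.131). The second ended without any 1 of the 3 labelled knockdown libraries or wild type replicate 1 or 2 (adjusted p = 0.0532 to 0.122). Ncoa6 has the longest exon sequence of the 8, 7800 bases, and the largest within-group SD, 0.26 in log2 CPM against a median of 0.16 over 1963 genes of like level. With the trend of each library with exon length removed, its log2 fold changes were 0.51 (adjusted p = 0.0324) and 0.47 (adjusted p = 0.0318).

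Paxip1 encodes PTIP, a BRCT-domain protein that also works in DNA repair. It stood at 99.2, 90.9 and 90.9 CPM in the UTX knockout, 117, 112 and 117 CPM in the labelled knockdown and 95.4, 82.7 and 97.8 CPM in wild type. The labelled knockdown libraries lay above all others, and the UTX knockout and wild type overlapped. The log2 fold change against wild type was 0.33 in the labelled knockdown (SE 0.10, adjusted p = 0.0344), or 1.26-fold, and 0.03 in the UTX knockout (95% interval -0.20 to 0.25, adjusted p = 0.892). Labelled knockdown over UTX knockout gave 0.30 (SE 0.10, adjusted p = 0.0451). The first call ended without any 1 of the 3 labelled knockdown libraries, UTX knockout replicate 2 or wild type replicate 2 (adjusted p = 0.0512 to 0.106), and the last without any 1 of the labelled knockdown libraries or UTX knockout replicate 2 or 3 (adjusted p = 0.0971 to 0.149).

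**Figure D3:**
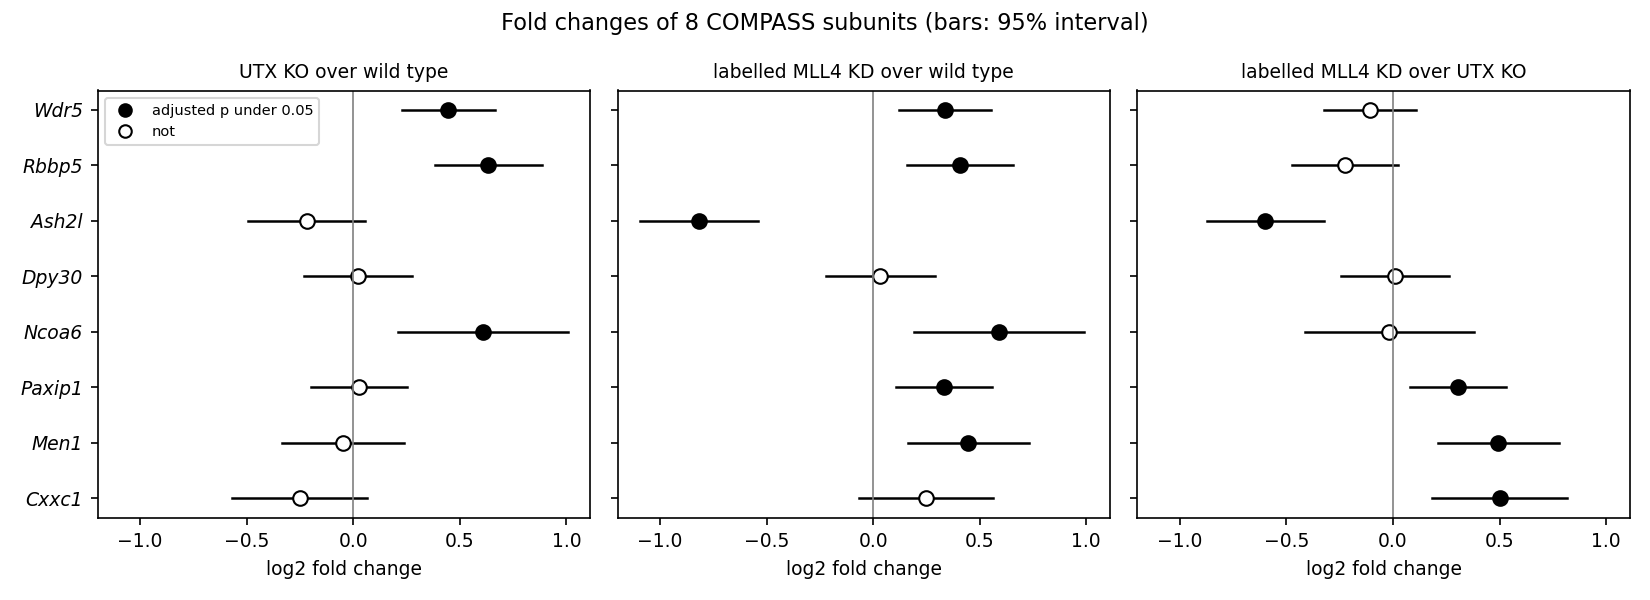
Fitted log2 fold changes (x axis) of the 8 subunits with 95% intervals for UTX knockout over wild type, labelled MLL4 knockdown over wild type and labelled knockdown over UTX knockout; filled points have an adjusted p under 0.05. The filled points number 3, 6 and 4, and Ash2l is the only one left of 0, in the 2 panels with the labelled knockdown.

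Men1 and Cxxc1, the subunits of the other COMPASS complexes, were both higher in the labelled MLL4 knockdown than in the UTX knockout. Across the 8 subunits, labelled knockdown over UTX knockout gave 3 rises and 1 fall, in a comparison where 28.9% of tested genes were called, made up of 13% higher and 16% lower. With the block the same 4 were called, against 36.7% of tested genes, and 5 of the 8 did not overlap between those groups, against 52.6%. The count of 4 was 1 without UTX knockout replicate 2 and 1 without labelled knockdown replicate 2 or 3. Men1, a tumour suppressor gene, stood at 73.6, 83.5 and 85.9 CPM in the labelled knockdown, 61.2, 50.6 and 60.9 CPM in the UTX knockout and 50.8, 64.1 and 63.6 CPM in wild type. The labelled knockdown libraries lay above all others. The log2 fold change was 0.45 in the labelled knockdown against wild type (SE 0.13, adjusted p = 0.0265), 0.49 against the UTX knockout (SE 0.13, adjusted p = 0.0158) and -0.05 in the UTX knockout against wild type (95% interval -0.33 to 0.24, adjusted p = 0.842). The first call ended without labelled knockdown replicate 2 or 3 or wild type replicate 1 (adjusted p = 0.0574 to 0.0982), and the second without labelled knockdown replicate 2 or 3 or UTX knockout replicate 2 (adjusted p = 0.0603 to 0.0775).

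Cxxc1 encodes CFP1, which binds CpG islands. It stood at 50.2, 55.7 and 59.1 CPM in the labelled knockdown, 37.5, 34.2 and 45.0 CPM in the UTX knockout and 38.8, 48.5 and 51.5 CPM in wild type. The labelled knockdown lay above the UTX knockout without overlap, and wild type overlapped both. The difference between the perturbed groups was 0.50 (SE 0.14, adjusted p = 0.0241), or 1.41-fold. Neither fold change against wild type passed, at 0.25 in the labelled knockdown (95% interval -0.07 to 0.56, adjusted p = 0.227) and -0.25 in the UTX knockout (-0.57 to 0.07, adjusted p = 0.264). The call between the perturbed groups ended without labelled knockdown replicate 2 or 3 or UTX knockout replicate 1 or 2 (adjusted p = 0.0623 to 0.102).

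Libraries of replicates 1 and 3 ran in lane 2 and those of replicate 2 in lane 1, per the labels. Within lane 2, with 2 libraries a group, 1 of all the subunits' calls remained, the fall of Ash2l in the labelled knockdown (-0.81, adjusted p = 0.0264). The fold changes there kept the direction of every called member. For Rbbp5 in the UTX knockout the value was 0.50 in lane 2 (adjusted p = 0.101) and 0.92 in lane 1, where 1 library a group gives no test. For Ncoa6 in the UTX knockout lane 2 gave 0.43 and lane 1 gave 1.03, and for the labelled knockdown 0.46 and 0.92. For Wdr5 in the UTX knockout lane 2 gave 0.43 and lane 1 gave 0.48, and both lanes gave 0.34 for the labelled knockdown.

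Levels were compared between subunits per kilobase of exon (union of exons in GENCODE M21, 1130 to 7800 bases). In every group the 4 core subunits stood above the 4 accessory ones. In the UTX knockout Ash2l was at 126 ± 12 CPM per kb, Wdr5 at 121 ± 8.34, Dpy30 at 108 ± 3.49 and Rbbp5 at 43.9 ± 2.77 (SD, n = 3). In the labelled knockdown Wdr5 was at 113 ± 4.84 CPM per kb, Dpy30 at 109 ± 8.10, Ash2l at 83.4 ± 4.72 and Rbbp5 at 37.5 ± 0.619. In wild type Ash2l was at 147 ± 21.2 CPM per kb, Dpy30 at 106 ± 14.0, Wdr5 at 89.1 ± 4.19 and Rbbp5 at 28.3 ± 3.75. Thus Ash2l stood highest in the UTX knockout and wild type, and below Wdr5 and Dpy30 in the labelled knockdown. Among the accessory subunits Men1 was highest and Ncoa6 lowest in each group, with means of 18.9 and 11.4 CPM per kb in the UTX knockout, 26.6 and 11.3 in the labelled knockdown and 19.5 and 7.49 in wild type. Neighbours in the order whose libraries overlapped were Ash2l with Wdr5, Men1 with Paxip1 and Paxip1 with Cxxc1 in the UTX knockout. They were Wdr5 with Dpy30 and Cxxc1 with Paxip1 in the labelled knockdown, and Men1 with Cxxc1 and Cxxc1 with Paxip1 in wild type.

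**Figure D4:**
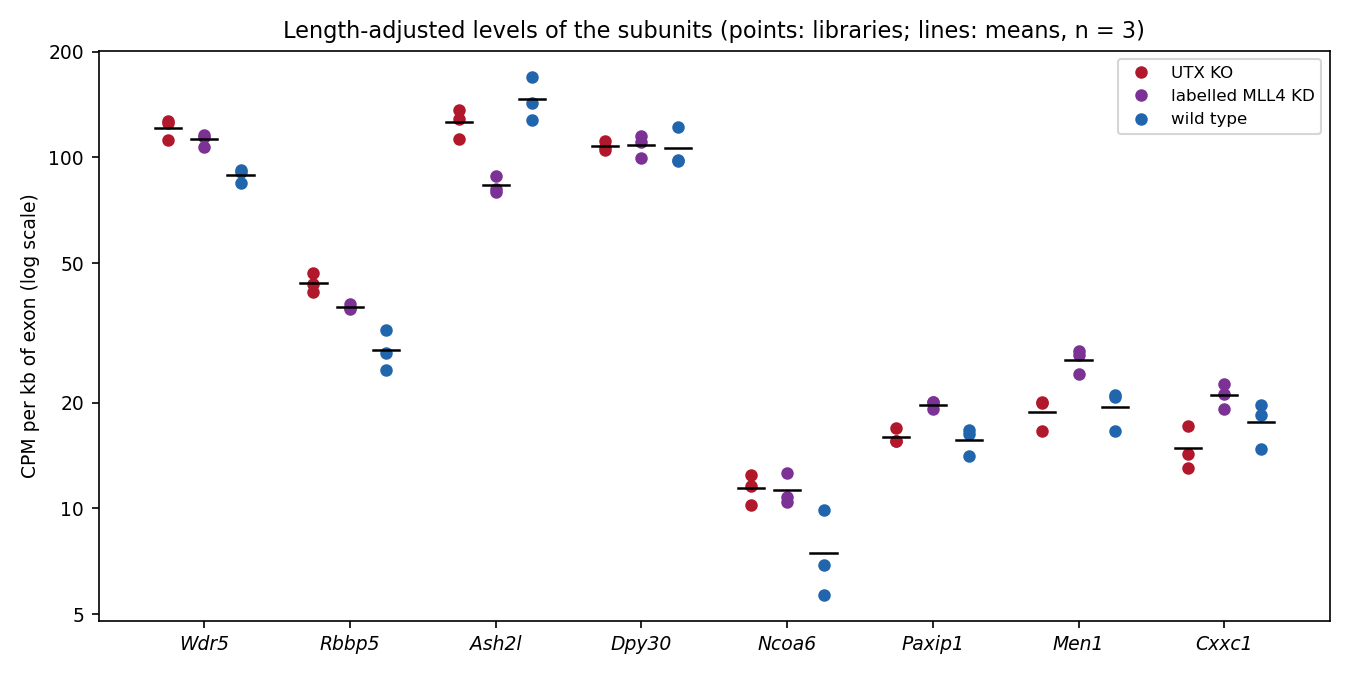
CPM per kb of exon (log axis) of the 8 subunits in each library, with lines at group means (n = 3), for the UTX knockout, labelled MLL4 knockdown and wild type from left to right. Wdr5, Ash2l and Dpy30 lie at 79.9 to 170 CPM per kb, Rbbp5 below them and the 4 accessory subunits lowest.

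The catalytic subunits passed the test in 1 case. Over all tested genes 15.5% were called in the UTX knockout, 26.6% in the labelled knockdown and 28.9% between them. Of 6 catalytic subunits, 0 were called in the UTX knockout and 0 in the labelled knockdown (edgeR). Only 1 was called in the labelled knockdown over the UTX knockout, as a rise. This was Setd1b, a SET1 methyltransferase, at 34.3, 32.2 and 31.1 CPM in the labelled knockdown, 12.4, 6.44 and 12.6 CPM in the UTX knockout and 18.6, 12.7 and 33.9 CPM in wild type. The labelled knockdown over UTX knockout was 1.64 in log2 (SE 0.33, adjusted p = 0.00423), a call that held with each library left out in turn. With the replicate number as a block, Setd1b was called against wild type too, at -1.02 in the UTX knockout (adjusted p = 0.0119) and 0.69 in the labelled knockdown (adjusted p = 0.0399). With the block Kmt2b, which encodes a promoter methyltransferase, rose by 0.43 in the labelled knockdown (adjusted p = 0.0274, against 0.1 without it). Kmt2d was with the block lower there than in the UTX knockout (-0.61, adjusted p = 0.0376, against 0.0987 without it). Wild type replicate 2 was low for the uncalled Kmt2a (140, 60.7 and 170 CPM in wild type) and Kmt2c (122, 48.8 and 134 CPM). Without the block their log2 fold changes were 0.38 and 0.42 in the UTX knockout. In the labelled knockdown they were 0.41 and 0.52 (SE 0.27 for all). The missing calls therefore do not show that these genes were unchanged. Kmt2d was also low in that library (86.2, 43.5 and 119 CPM in wild type). The same limit holds for its missing call in the labelled knockdown against wild type.

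Of 8 other subunits and partners, 2 fell and 0 rose in the UTX knockout, 1 rose in the labelled knockdown, and 3 rose in the labelled knockdown over the UTX knockout. Over all tested genes 15.5%, 26.6% and 28.9% were called in these comparisons. Kdm6a, the gene targeted in the UTX knockout, is 1 of the 2 falls and 1 of the 3 rises. The falls were Kdm6a itself (-2.27, SE 0.20, adjusted p = 0.000155) and Psip1, a chromatin reader that works with menin (-0.42, SE 0.12, adjusted p = 0.0315). Psip1 lies on chromosome 4, whose median was -0.15, and its call ended without any 1 of 7 libraries, all but wild type replicates 2 and 3 (adjusted p = 0.0513 to 0.104). The rise in the labelled knockdown was Hcfc2, an HCF family protein (0.51, SE 0.16, adjusted p = 0.0308), which ended without any 1 of the labelled knockdown libraries or wild type replicate 2 or 3 (adjusted p = 0.0569 to 0.101). Its paralog Hcfc1 was at 0.57 there (adjusted p = 0.0549) and 0.62 with the block (adjusted p = 0.0152), and 7 of 19 alternative settings called it, the block among them. Over the UTX knockout, Kdm6a (2.70), Hcfc1 (0.68, SE 0.20, adjusted p = 0.0273) and Bod1, a subunit of the SET1B complex (0.56, SE 0.15, adjusted p = 0.0192) were higher in the labelled knockdown. The call of Hcfc1 ended without any 1 of the labelled knockdown libraries or UTX knockout replicate 2 or 3 (adjusted p = 0.06 to 0.103), and that of Bod1 without labelled knockdown replicate 1 or 2 or UTX knockout replicate 3 (adjusted p = 0.0597 to 0.0731). Pagr1a, the small partner of PTIP, was at 0.55 in that comparison both without the block (adjusted p = 0.0613) and with it (adjusted p = 0.0498), and 8 of 19 alternative settings called it.

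Of 6 H3K4 demethylases 5 were tested and 0 were called against wild type in either group (edgeR). Over all tested genes 15.5% were called in the UTX knockout and 26.6% in the labelled knockdown. Kdm1b, an amine oxidase demethylase, was lower in the labelled knockdown than in the UTX knockout (-0.42, SE 0.12, adjusted p = 0.0255), a call that ended without any 1 of those 6 libraries (adjusted p = 0.0502 to 0.0967). The Y-linked Kdm5d had 0, 0 and 1 counts in the UTX knockout, 0, 0 and 0 in the labelled knockdown and 8, 10 and 9 in wild type, and was not tested.

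Of 11 partners that the subunits have outside COMPASS, 1 rose in the UTX knockout and 3 in the labelled knockdown, and 0 fell (edgeR). Over all tested genes 15.5% and 26.6% were called in these comparisons. The called partners belong to the NSL acetyltransferase complex, which also holds WDR5. Its other listed members were not called against wild type in either group. In the UTX knockout Kansl2 was at 0.07, Mcrs1 at -0.25, Phf20 at 0.16 and Ogt at 0.19. In the labelled knockdown they were at 0.30, 0.09, -0.06 and 0.36 in the same order. Kansl3 rose by 0.38 in the UTX knockout (SE 0.11, adjusted p = 0.0377) and by 0.43 in the labelled knockdown (SE 0.11, adjusted p = 0.0141). The first call ended without any 1 of 7 libraries, all but UTX knockout replicate 1 and wild type replicate 1 (adjusted p = 0.0588 to 0.139), and the second without labelled knockdown replicate 2 (adjusted p = 0.0612). In the labelled knockdown Kansl1 rose by 0.43 (SE 0.12, adjusted p = 0.0212) and Kat8, the catalytic subunit, by 0.44 (SE 0.13, adjusted p = 0.0306). The Kansl1 call ended without any 1 of the labelled knockdown libraries (adjusted p = 0.0522 to 0.0749), and the Kat8 call without any of these or wild type replicate 3 (adjusted p = 0.0527 to 0.109). Both were also higher in the labelled knockdown than in the UTX knockout, by 0.35 (adjusted p = 0.0469) and 0.42 (adjusted p = 0.0341), and both of these calls ended without any 1 of those 6 libraries (adjusted p = 0.0944 to 0.129 for Kansl1 and 0.0549 to 0.13 for Kat8). With the block Kansl2 rose as well in the labelled knockdown (0.30, adjusted p = 0.0416). Jund, an AP-1 factor that binds menin and lies on chromosome 8, was at -1.05 in the UTX knockout (adjusted p = 0.0604) and -0.95 in the labelled knockdown (adjusted p = 0.0623). With the block it was called in both, at -1.12 (adjusted p = 0.00663) and -0.90 (adjusted p = 0.0124), and 6 and 8 of 19 alternative settings called it.

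The genes flanking the subunits did not share one pattern. Values are given for those called against wild type and those beside Ash2l. Brd3, Memo1, Spast, Ggt7, Cdc42bpg, Ska1 and Mbd1, which also flank subunits, were not called against wild type in either group. Over all tested genes 15.5% were called in the UTX knockout and 26.6% in the labelled knockdown. No other gene in GENCODE M21 overlapped a subunit, apart from the pseudogene Gm14239 within Ncoa6, at a mean of 0.0354 CPM. Both genes beside Rbbp5 rose in the UTX knockout, the kinase gene Dstyk by 0.63 (SE 0.14, adjusted p = 0.0137) and Tmem81 by 0.65 (SE 0.18, adjusted p = 0.0346). In the labelled knockdown Dstyk rose by 0.70 (adjusted p = 0.00474) while Tmem81 stood at -0.22 (adjusted p = 0.406). Beside Ncoa6, Trp53inp2, an autophagy gene, rose by 0.57 (adjusted p = 0.0289) in the UTX knockout and by 0.96 (adjusted p = 0.0012) in the labelled knockdown. Beside Men1, the kinase gene Map4k2 rose by 0.53 in the UTX knockout (adjusted p = 0.0169) and fell by 0.48 in the labelled knockdown (adjusted p = 0.0172), where Men1 rose. Beside Wdr5, the retinoid receptor gene Rxra fell by 0.57 in the UTX knockout (adjusted p = 0.0466), where Wdr5 rose. Beside Paxip1, Dpp6 rose by 1.25 in the UTX knockout (adjusted p = 0.0158), where Paxip1 was at 0.03. Beside Ash2l, Star stood at -0.23 in the UTX knockout and -0.02 in the labelled knockdown, and Kcnu1, at a mean of 1.13 CPM, fell by 2.54 in the labelled knockdown (adjusted p = 0.00384).

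Among the subunits themselves, the pair with the most similar profile over the 9 libraries was Men1 and Cxxc1, with a root mean square difference of 0.12 in centred log2 CPM. Wdr5 and Rbbp5 followed at 0.16, beside Rbbp5 and Ncoa6, also at 0.16, and Paxip1 and Men1 at 0.17. The widest distance was between Ash2l and Ncoa6, at 0.65. Over all tested genes, the profiles nearest to Rbbp5 were those of Dnalc1 (0.07), Ric8b (0.08) and Fam160b1 (0.09), and those nearest to Wdr5 were Rap2a, Akr1b10 and Pcyox1 (each 0.08). Nearest to Ash2l were Pdlim1 (0.11), Slc43a1 (0.11) and Cog4 (0.12), of which Cog4 is also on chromosome 8. Nearest to Ncoa6 were Tiam1 (0.09), Echdc1 (0.12) and C2cd3 (0.12), and nearest to Paxip1 were Elf2 (0.03), Cwc25 (0.04) and Polr3b (0.05). Nearest to Men1 were Rundc1 (0.05), Ube2c (0.06) and Zfyve19 (0.06), and nearest to Cxxc1 were Hsf1 (0.05), Plekhm2 (0.06) and Rrs1 (0.07). Nearness was measured over libraries that fall into 3 groups and so reflects the group differences together with the spread within groups. It was not scaled to how much a subunit varies. The SD over the 9 libraries was 0.18 in log2 CPM for Paxip1 and 0.39 for both Ash2l and Ncoa6. A smaller distance for 1 subunit than for another is therefore not a closer match of pattern.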

How the data were processed

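Per the labels, a TruSeq kit was used for the 9 RNA-seq libraries of mouse embryonic stem cells. The authors deposited raw read counts per gene symbol, 1 column per library. Per the submitters' processing notes the tools were HTSeq 0.6.1 and STAR 2.4, and 2 builds, hg19 and mm9, are named without a role. Which annotation and strand setting were used is not given in the sources used here. If strand was ignored, reads of antisense neighbours add to a gene's count. The members and gene lists were chosen with earlier results of these data known.

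Genes passing edgeR 4.0.16 filterByExpr were scaled by TMM and tested in R 4.3.3 by quasi-likelihood, with all 9 libraries and group terms in 1 fit, two-sided, adjusted by Benjamini-Hochberg at 0.05. Intervals are at 95%. Log2 CPM used a prior count of 2. No design was stated in the labels. Scripts were tested on simulated data. No 2 libraries of a group were copies of each other (chi-square over degrees of freedom 6.42 to 56.5). Alternatives were DESeq2 1.42.0, other scalings, filters, fits, lanes, a correction for exon length and leaving out each library.

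Named genes were the 8 subunits, Kdm6a and Kmt2d, listed genes called in any comparison, flanking protein-coding genes and the 3 nearest profiles of each called subunit. Of the flanking genes, those called against wild type and those beside Ash2l are given with values. Chromosomes, exon lengths and flanking genes came from GENCODE M21 (GRCm38), matched by symbol for 28537 genes and by an older symbol for 2495 of 33924. In RefSeq 6 subunits had an upstream window. Mll2 was read as Kmt2d and Wbp7 as Kmt2b, although RefSeq gives Mll2 as a synonym of both.

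Deviations from the group means went together in libraries of the same number, with correlations across genes of 0.168 to 0.467 for all 9 pairs, so the replicate number was taken to pair libraries and the fit with it as a block is given where it changes a call. What the number stands for is not stated. Unless the block is named, SEs, intervals and adjusted p-values are from the fit with group terms only, which leaves this pairing out. No call among the 8 subunits changed with the replicate block.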

Additional observations from a re-analysis of the deposited data

How the results depend on the processing

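Limits: each group has 3 libraries, lane 1 holds 1 library a group, and intervals cover the spread between these libraries. The titles give the UTX knockout another line name than the other 2 groups. In neither perturbed group can a difference of line and the perturbation be told apart. No call among the 8 subunits changed with DESeq2's size factors, DESeq2's Wald test or the replicate block (24 of 24 unchanged in each), although the block raised the genes called in the UTX knockout to 3446, against 2285. In the order UTX knockout over wild type, labelled knockdown over wild type and labelled knockdown over UTX knockout, fits to lane 2 alone called 74, 1341 and 1535 genes and 0, 1 and 0 subunits. Exon-length trends removed together with the block called 4401, 5946 and 6558 genes. The 2 groups alone called 1240 genes and 1 subunit in the UTX knockout. The lane and 2-group fits also held fewer libraries. The causes of these differences were not tested.

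In lane 2, calls were lost in the UTX knockout for Wdr5 (0.43), Rbbp5 (0.50) and Ncoa6 (0.43), in the labelled knockdown for Wdr5 (0.34), Rbbp5 (0.33), Ncoa6 (0.46), Paxip1 (0.28) and Men1 (0.48), and between them for Ash2l (-0.51), Paxip1 (0.30), Men1 (0.39) and Cxxc1 (0.41). Signs turned there for the uncalled Paxip1 (-0.022) and Men1 (0.095) in the UTX knockout and Ncoa6 (0.027) between the perturbed groups. In the 2 groups alone, calls were lost for Wdr5 (0.44, adjusted p = 0.0559) and Ncoa6 (0.61, 0.0919) in the UTX knockout and for Ncoa6 (0.60, 0.0627) and Paxip1 (0.34, 0.0642) in the labelled knockdown, and Rbbp5 between the perturbed groups (-0.23, 0.0412) was gained. Paxip1 lost its call in the labelled knockdown with total-count scaling (0.33, 0.0505) and with no filter (0.36, 0.0526), and likewise over the UTX knockout (0.32, 0.0508, and 0.33, 0.0851). Between the perturbed groups Ncoa6 turned to 0.0053 and 0.0064 under those settings, and Dpy30 to -0.0022 under a stricter filter. Removing exon-length trends turned Paxip1 in the UTX knockout to -0.051, also with the block (-0.052), where Cxxc1 in the labelled knockdown became a call (0.30, 0.0298). Minus the chromosome's median, Ash2l was 0.23 in the UTX knockout and -0.40 in the labelled knockdown. Other scalings moved the median of all genes by less than 0.1.

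Leaving out each library in turn called 833 (without UTX knockout replicate 2) to 2854 genes and 1 to 3 subunits in the UTX knockout, 2273 (without labelled knockdown replicate 2) to 4108 genes and 1 to 6 subunits in the labelled knockdown, and 2556 (without UTX knockout replicate 2) to 5281 genes and 1 to 4 subunits between them. Log2 fold changes in the UTX knockout ran from 0.41 to 0.52 for Wdr5, 0.55 to 0.74 for Rbbp5, -0.31 to -0.085 for Ash2l, -0.028 to 0.14 for Dpy30, 0.44 to 0.86 for Ncoa6, -0.043 to 0.075 for Paxip1, -0.13 to 0.035 for Men1 and -0.35 to -0.17 for Cxxc1. In the labelled knockdown the ranges were 0.30 to 0.38, 0.32 to 0.52, -0.91 to -0.68, -0.017 to 0.15, 0.43 to 0.84, 0.26 to 0.38, 0.36 to 0.51 and 0.16 to 0.34 in the same order of subunits. Over the UTX knockout they were -0.17 to -0.072, -0.27 to -0.18, -0.67 to -0.54, -0.035 to 0.072, -0.11 to 0.047, 0.28 to 0.35, 0.41 to 0.56 and 0.42 to 0.62.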
